A study of Mus musculus with 15 samples.

Results

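This account covers 42 cell cycle and proliferation genes, 18 that act in S phase (DNA replication) and 24 that act in G2 and mitosis (G2/M), in alveolar macrophages of mice with and without the phagocyte NADPH oxidase. They were taken from the count table by gene symbol, 1 row per Ensembl identifier, and all 42 of the 40510 genes in the table were found and passed the filter on low counts, so that each was tested. The cells were washed from the airways of untreated C57BL/6 mice, wild type or knockout for Cybb, which encodes the catalytic subunit NOX2 of that oxidase (a model of chronic granulomatous disease). The sort took CD45+ Ly6G- SiglecF+ CD11c+ cells in fractions of low and high surface CD11b. There were 5 groups of 3 libraries each. CD11b-low cells came from both genotypes at 4 weeks of age and from both at 12 weeks, and CD11b-high cells came from 12-week-old knockouts alone. Every library pooled 2 to 3 mice (about 50000 cells), the knockout is carried by all cells of the animal, and no wild-type CD11b-high group was among the samples.

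Alveolar macrophages settle in the lung around birth and maintain themselves in adult life largely by dividing in place. A cell that enters the cycle loads the MCM helicase onto replication origins with Cdc6 and Cdt1, makes deoxynucleotides through ribonucleotide reductase and thymidylate synthase, and later builds the mitotic spindle under the control of Cdk1, Plk1 and the Aurora kinases. Genes of the first wave are classically driven by E2F factors. Those of the second are controlled by NF-Y at CCAAT boxes and by the DREAM and MuvB complexes at a short element called the cell cycle homology region (CHR).

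Promoter sequences, 250 bases before to 50 after the annotated start (RefSeq, GRCm38.p6), were given for 35 of the 42 members. Missing were Aurkb, Ccna2, Ccne2, Gins2, Kif20a, Mcm4 and Tpx2. 3 sets of letters were searched on both strands, namely E2F letters (any of TTGGCGC, the variant TTCCCGC, the variant TTCGCGC and the variant TTGCCGC), the NF-Y box CCAAT and the CHR letters TTTGAA. The E2F letters stood in the promoters of 8 of 15 S-phase members (53.3%) and 4 of 20 G2/M members (20%), against 10.9% of 27025 genes. CCAAT was present in 9 of 15 S-phase and 18 of 20 G2/M members, against 41.1% of all genes. TTTGAA was present in 2 of 15 S-phase and 14 of 20 G2/M members, against 20.2% of all genes. A match is a description of letters and not evidence of binding.

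The promoters of 6 members show these patterns beside the members with the clearest values, from 150 bases before to 30 after the start, 5′ to 3′ along the gene's strand, with the matched letters of any set in capitals. They were chosen after their values were seen. The S-phase examples are Cdc6 (chr11:98908001-98908180, plus strand) and Rrm1 (chr7:102441545-102441724, plus strand), the G2/M examples are Prc1 (chr7:80294301-80294480, plus strand), Top2a (chr11:99024160-99024339, minus strand) and Plk1 (chr7:122159285-122159464, plus strand), and Tk1 (chr11:117825985-117826164, minus strand) is shown as an S-phase member with none of the letters.
Cdc6: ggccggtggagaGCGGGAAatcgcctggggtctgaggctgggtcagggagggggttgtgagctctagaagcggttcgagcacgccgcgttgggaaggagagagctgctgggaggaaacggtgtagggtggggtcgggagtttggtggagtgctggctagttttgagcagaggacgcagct
Rrm1: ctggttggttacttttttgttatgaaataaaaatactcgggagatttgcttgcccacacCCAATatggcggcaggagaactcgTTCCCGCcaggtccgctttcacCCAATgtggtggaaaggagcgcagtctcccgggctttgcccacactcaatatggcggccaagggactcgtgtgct
Prc1: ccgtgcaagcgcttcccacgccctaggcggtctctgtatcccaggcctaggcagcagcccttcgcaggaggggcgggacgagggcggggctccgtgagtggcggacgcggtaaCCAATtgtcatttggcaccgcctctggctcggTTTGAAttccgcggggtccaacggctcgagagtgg
Top2a: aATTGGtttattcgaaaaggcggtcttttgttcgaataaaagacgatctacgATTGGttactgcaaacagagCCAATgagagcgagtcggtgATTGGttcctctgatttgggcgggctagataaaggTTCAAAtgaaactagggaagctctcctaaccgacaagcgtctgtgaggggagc
Plk1: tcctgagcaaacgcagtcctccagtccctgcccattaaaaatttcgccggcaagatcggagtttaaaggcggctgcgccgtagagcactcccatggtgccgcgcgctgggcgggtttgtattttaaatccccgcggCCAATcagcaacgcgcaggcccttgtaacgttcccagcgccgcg
Tk1: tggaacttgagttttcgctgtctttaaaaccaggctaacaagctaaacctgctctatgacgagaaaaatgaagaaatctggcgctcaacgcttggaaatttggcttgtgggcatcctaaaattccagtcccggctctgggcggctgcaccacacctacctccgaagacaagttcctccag
In Cdc6 the capitals are E2F letters on the opposite strand. In Rrm1 E2F letters lie between 2 CCAAT boxes. Prc1 has a CCAAT box and TTTGAA near the start, and in Top2a 4 CCAAT boxes, 3 of them on the opposite strand, precede CHR letters on the opposite strand. Plk1 has a CCAAT box in the window, and its TTTGAA begins 31 bases after the start, beyond the printed end.

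**Figure D1:**
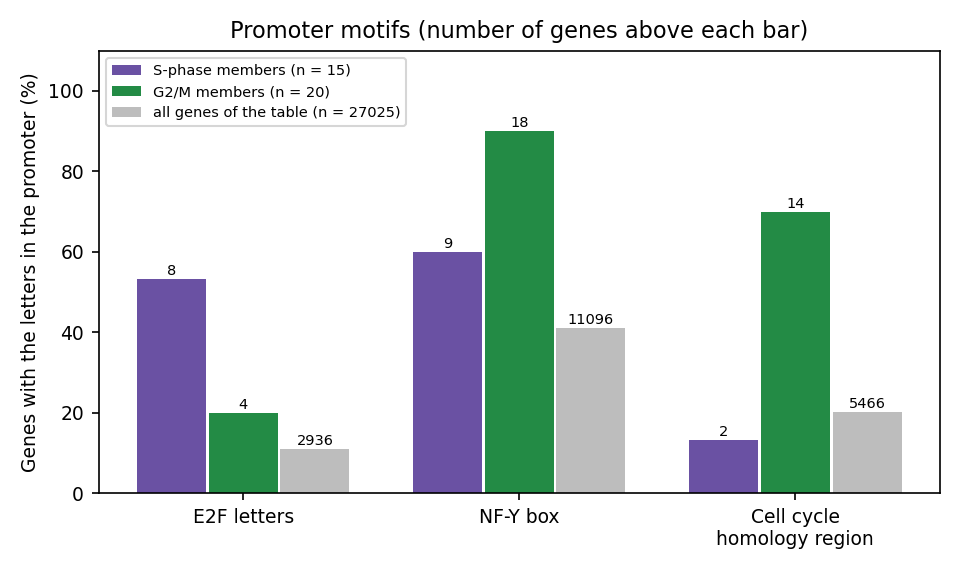
Share of genes (%) with each set of letters in the 300-base promoter, for 15 S-phase members, 20 G2/M members and 27025 genes with a promoter in the table, with the number of genes above each bar. The E2F letters were most frequent in S-phase members (53.3%), and the NF-Y box (90%) and CHR letters (70%) in G2/M members.

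The libraries held 22856331 to 36458893 counts (median 32415469). Levels are TMM-scaled CPM (counts relative to library size). Only the sums of cell type markers are CPM of the library total without TMM scaling. Folds and adjusted p-values are those of edgeR (quasi-likelihood, two-sided), adjusted by Benjamini-Hochberg over 13284 genes at a threshold of 0.05. Genes that pass are called. The Cybb level ranged from 129 to 221 CPM over the 9 libraries without the oxidase and from 899 to 2319 CPM over the 6 wild-type ones, and all 10 alveolar macrophage markers were detected in every library. Some features of the libraries touch the results. Replicate 1 of the 12-week wild-type group stood apart over all genes. Chi-square per degree of freedom was 413 and 371 against replicates 2 and 3, and 68.7 between those. Its alveolar macrophage markers summed to 29405 CPM, against 43833 and 45191 CPM. It also stood apart in single members, for example in Ccne2, at 105 CPM against 42.3 and 41.5 CPM. T and NK cell markers summed to 54.5 to 158 CPM in the 12-week knockout CD11b-low libraries and to 82.8 to 212 CPM in the CD11b-high libraries, against at most 7.40 CPM elsewhere. Xist, a transcript of female cells, was above 10 CPM in 7 libraries and near 0 in the other 8, among them all 3 of the 12-week wild-type group.

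Members were most abundant at 4 weeks. Summed over the 24 G2/M members, the level was 989, 939 and 842 CPM in 4-week wild-type cells and 980, 869 and 1011 CPM in 4-week knockout cells. At 12 weeks it was 559, 445 and 448 CPM in wild-type and 704, 766 and 621 CPM in knockout CD11b-low cells, and 409, 588 and 373 CPM in knockout CD11b-high cells. The 3 wild-type libraries at 12 weeks lay below the 3 knockout CD11b-low libraries, which lay below all 6 at 4 weeks, whereas the CD11b-high libraries overlapped with the wild-type ones. Summed over the 18 S-phase members, the level was 1435, 1221 and 1085 CPM in 4-week wild-type, 1333, 1128 and 1179 CPM in 4-week knockout, 888, 1064 and 932 CPM in 12-week wild-type, 1032, 1140 and 1082 CPM in 12-week knockout CD11b-low and 802, 904 and 663 CPM in CD11b-high cells. The S-phase sums of the groups were closer to each other, and those of the 12-week knockout CD11b-low cells overlapped with both 4-week groups.

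The G2/M level varied more between the groups than the S-phase level. The ratio of the G2/M to the S-phase sum was 0.745 ± 0.048 (SD, n = 3) in 4-week wild-type, 0.788 ± 0.063 in 4-week knockout, 0.510 ± 0.108 in 12-week wild-type, 0.643 ± 0.060 in 12-week knockout CD11b-low and 0.575 ± 0.071 in CD11b-high cells. All 6 libraries at 4 weeks had a ratio of 0.689 or more, and all 9 at 12 weeks one of 0.682 or less. On the log2(CPM + 1) scale, where each member weighs the same, the mean of the G2/M minus that of the S-phase members differed between 12 and 4 weeks by -0.559 in wild-type cells and by -0.331 in knockout cells. It was 0.317 higher in knockout than in wild-type CD11b-low cells at 12 weeks, but 0.135 higher with medians over members in place of means, and with medians the age difference in knockout cells was -0.627. On this scale, with means, the ages overlapped by library. Replicate 1 of 4-week wild type was at -0.841, below replicate 2 of 12-week knockout CD11b-low (-0.825) and of CD11b-high (-0.828). These are descriptions with no test. In bulk samples, fewer cycling cells and less RNA per cycling cell cannot be told apart. Per kilobase of exon (GENCODE M21), the most abundant members over all 15 libraries were Rrm2 (50.2 CPM per kilobase), Pcna (37.2), Mcm3 (27.5) and Ccnb2 (26.6), and the least abundant was Cenpf (0.667).

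**Figure D2:**
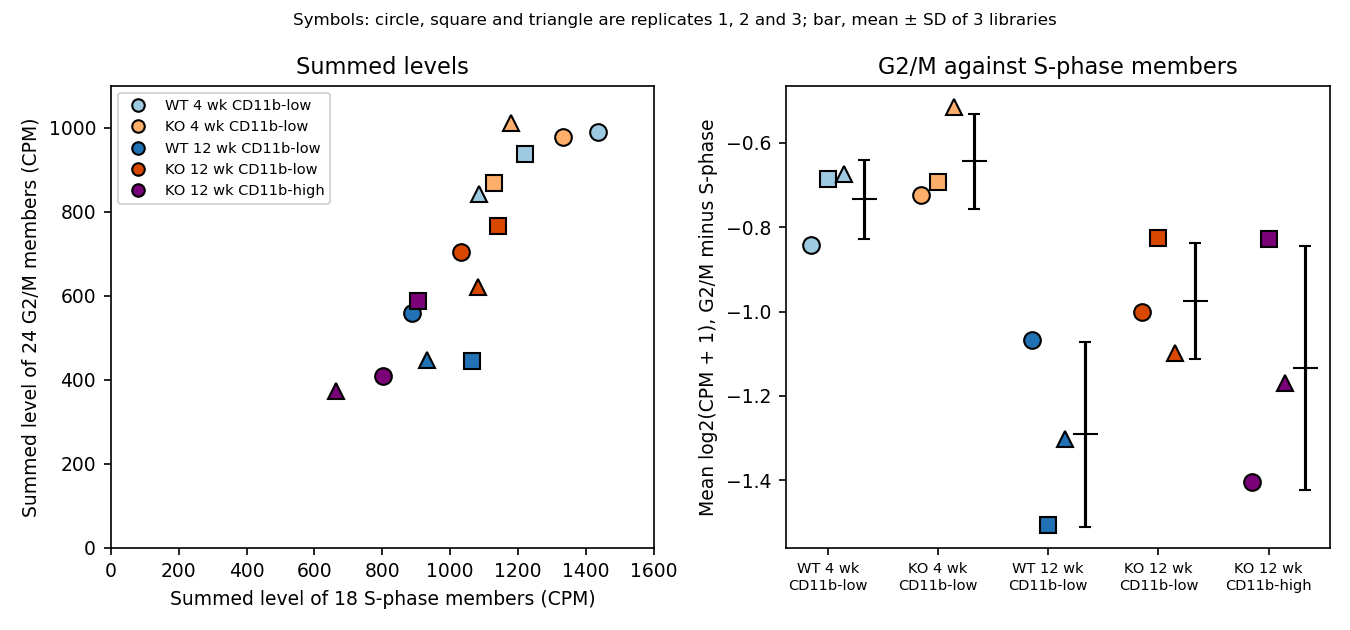
Left, summed CPM of the 24 G2/M members against that of the 18 S-phase members in each library. Right, mean log2(CPM + 1) of G2/M minus S-phase members by library, with the mean ± SD of 3 libraries. The 4-week libraries lie at the upper right, with G2/M sums of 842 CPM or more.

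**Figure D3:**
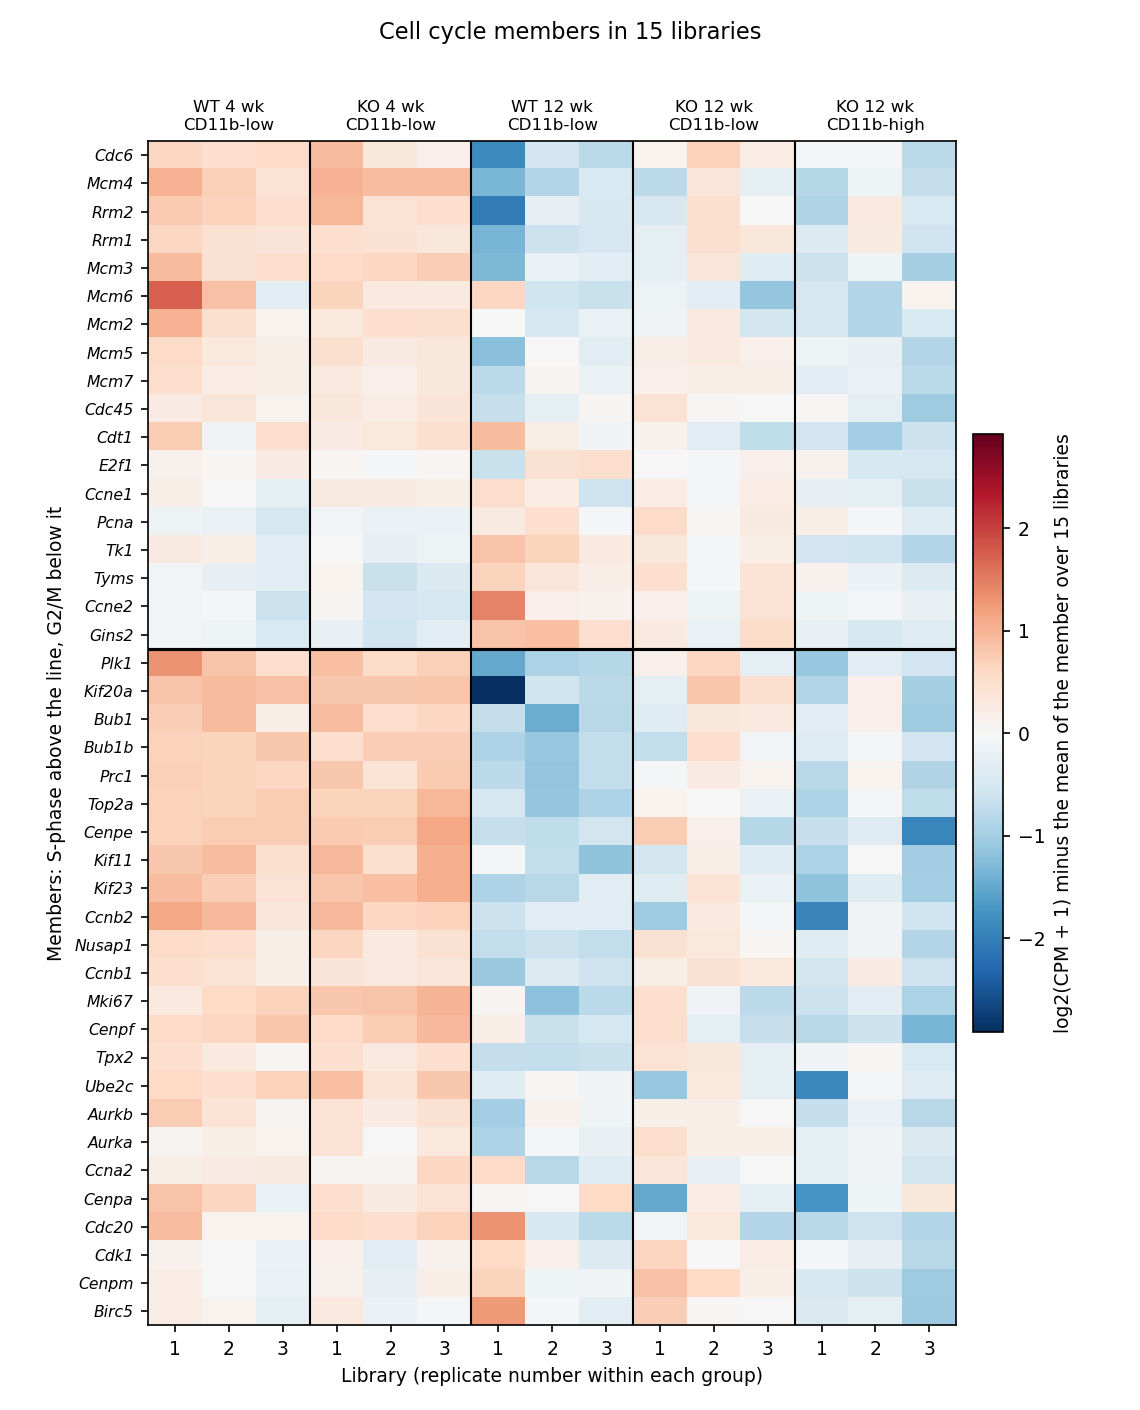
Level of each member in each of the 15 libraries, as log2(CPM + 1) minus the mean of that member over all libraries (red higher, blue lower). S-phase members are above the line and G2/M members below it, each ordered by the wild-type age difference. Most G2/M members are high at 4 weeks in both genotypes. Among the last S-phase rows Tk1, Tyms and Gins2 are high in 12-week wild-type libraries, and Ccne2 is high in replicate 1 of them.

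How the cycle genes of normal alveolar macrophages differ between young and adult mice was addressed by 12-week against 4-week wild-type cells. At 12 weeks 20 of 42 members fell, 2 rose and 20 were not called, and the difference was negative for 32 of 42. Of all genes tested, 8.39% were called lower and 8.79% higher. Of the 24 G2/M members 14 fell and none rose, and of the 18 S-phase members 6 fell and 2 rose. The median log2 difference was -1.11 over the G2/M members and -0.54 over the S-phase members, against -0.03 over all genes. The libraries of the 2 ages did not overlap for 17 of 24 G2/M members and 9 of 18 S-phase members that were lower (18.7% of all genes), and for 5 S-phase members that were higher (15.6% of all genes).

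All 6 spindle and cytokinesis members fell. Prc1, which bundles the microtubules of the central spindle, stood at 66.7, 64.3 and 62.6 CPM at 4 weeks and at 23.6, 17.6 and 24.3 CPM at 12 weeks, a log2 difference of -1.56 (SE 0.26, adjusted p = 0.0032). Nusap1, a spindle microtubule binding protein, went from 67.5, 65.5 and 51.2 CPM to 27.3, 29.1 and 27.5 CPM (log2 -1.13, SE 0.23, adjusted p = 0.0048). The kinesin gene Kif23 of the central spindle went from 75.9, 67.0 and 54.5 CPM to 21.1, 22.6 and 31.8 CPM (log2 -1.39, SE 0.27, adjusted p = 0.00478). In each of these the 3 young libraries were above the 3 adult ones with a wide gap. Tpx2, which activates Aurora A on the spindle, stood at 40.6, 35.1 and 29.8 CPM and then at 17.5, 17.1 and 18 CPM (log2 -1.003, SE 0.23, adjusted p = 0.00819). Kif20a, a kinesin needed for cytokinesis, went from 46.3, 49.3 and 46.8 CPM to 2.50, 16.6 and 14.2 CPM (log2 -2.09, adjusted p = 0.00893), and Kif11, the motor that separates spindle poles, from 14.6, 16.1 and 11.7 CPM to 7.85, 4.58 and 3.01 CPM (log2 -1.45, adjusted p = 0.0152). The adult libraries were lower in every case, and the lowest Kif20a value was that of replicate 1.

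Among mitotic kinases and checkpoint genes the largest difference of any member was in Plk1, the kinase of mitotic entry and exit. It stood at 20.1, 14.1 and 11 CPM at 4 weeks and at 2.01, 3.50 and 3.79 CPM at 12 weeks, 4.85-fold lower (log2 -2.28, SE 0.35, adjusted p = 0.00211). The spindle checkpoint kinase genes Bub1 and Bub1b fell as well. Bub1b stood at 99.0, 97.5 and 107 CPM and then at 32.4, 28.4 and 37.0 CPM (log2 -1.63, SE 0.27, adjusted p = 0.00281), and Bub1 at 21.8, 25.2 and 14.9 CPM and then at 7.57, 4.11 and 6.89 CPM (log2 -1.74, SE 0.34, adjusted p = 0.00477). The ages did not overlap for these 3 genes. Aurka and Aurkb, the Aurora kinases, had log2 differences of -0.47 (adjusted p = 0.182) and -0.70 (0.0962), and Cdc20 and Ube2c, which act with the anaphase promoting complex, of -0.11 (0.917) and -0.77 (0.212). Birc5 (survivin) had a positive difference of 0.45 (0.404), with 123 CPM in replicate 1 of the adult libraries against 50.04 and 41.4 CPM in the others.

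Of the mitotic cyclins, Ccnb1 (cyclin B1) stood at 20.9, 20.0 and 16.7 CPM and then at 6.32, 10.8 and 9.27 CPM (log2 -1.12, SE 0.27, adjusted p = 0.0103), and Ccnb2 at 78.7, 68.8 and 45.5 CPM and then at 22.5, 28.3 and 28.1 CPM (log2 -1.29, SE 0.39, adjusted p = 0.0315). Their partner Cdk1 was not called (log2 0.17, adjusted p = 0.711), nor was Ccna2 (log2 -0.38, 0.515). Both genes of mitotic chromosomes fell. Top2a, the topoisomerase that untangles sister chromatids, stood at 102, 101 and 107 CPM and then at 45.7, 28.6 and 34.0 CPM (log2 -1.52, SE 0.25, adjusted p = 0.00281), and Mki67, whose protein Ki-67 is the usual marker of cycling cells, at 29.2, 36.6 and 38.9 CPM and then at 25.4, 9.90 and 13.4 CPM (log2 -1.10, SE 0.34, adjusted p = 0.0349). At the kinetochore only the motor gene Cenpe passed, at 23.5, 24.6 and 24.7 CPM and then 8.57, 8.18 and 9.49 CPM (log2 -1.47, adjusted p = 0.0174), and Cenpa, Cenpf and Cenpm did not (log2 -0.27, -1.02 and 0.19).

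The S-phase members went in both directions. All 6 subunits of the MCM helicase had negative differences and 3 were called: Mcm4 (107, 85.8 and 71.4 CPM, then 20.3, 28.6 and 38.3 CPM, log2 -1.60, SE 0.30, adjusted p = 0.00445), Mcm3 (181, 128 and 135 CPM, then 37.3, 82.1 and 75.9 CPM, log2 -1.18, SE 0.30, adjusted p = 0.0131) and Mcm2 (44.4, 29.97 and 23.2 CPM, then 21.1, 14.8 and 18.5 CPM, log2 -0.84, SE 0.27, adjusted p = 0.0412). Cdc6, which loads that helicase, stood at 24.3, 22.1 and 23.3 CPM and then at 3.54, 10.2 and 8.54 CPM (log2 -1.65, SE 0.35, adjusted p = 0.00596). The 2 subunits of ribonucleotide reductase fell: Rrm1 from 150, 135 and 128 CPM to 37.8, 63.3 and 70.1 CPM (log2 -1.27, SE 0.28, adjusted p = 0.00678), and Rrm2 from 211, 197 and 175 CPM to 29.2, 105 and 89.1 CPM (log2 -1.38, SE 0.39, adjusted p = 0.0219). In these 6 genes each young library was above each adult one.

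Gins2, a subunit of the replication fork complex GINS, went the other way, at 54.8, 52.1 and 42.3 CPM at 4 weeks and 103, 108 and 81.9 CPM at 12 weeks (log2 0.97, SE 0.22, adjusted p = 0.00883), 1.96-fold higher. Ccne2 (cyclin E2) stood at 35.7, 36.6 and 24.2 CPM and then at 105, 42.3 and 41.5 CPM (log2 0.96, SE 0.32, adjusted p = 0.049). The young and adult libraries did not overlap, but the size of the Ccne2 difference rested on replicate 1 of the adult group (105 CPM). Without that library Ccne2 was not called. Its smallest log2 difference in any alternative was 0.35, with limma voom on all libraries. Pcna (the sliding clamp), Tyms (thymidylate synthase) and Tk1 (thymidine kinase) had positive differences of 0.53, 0.62 and 0.55 that were not called (adjusted p = 0.107, 0.0833 and 0.0931), also with no overlap between the ages. Cdt1, E2f1 and Ccne1 differed by -0.02, 0.05 and 0.16. Set against the promoters, a comparison made after the values were seen, the 8 S-phase members with E2F letters had a median log2 difference of -1.15 and 4 fell, and the 7 without had a median of 0.16 and 1 of them, Mcm2, fell. CCAAT boxes divided the S-phase members in a like way (median -0.84 for 9 with and 0.11 for 6 without). Among the G2/M members the order for E2F letters was the opposite, with a median of -0.47 for 4 with and -1.34 for 16 without. For CCAAT the G2/M medians were -1.21 for 18 with and -0.34 for 2 without. The medians by CHR letters were close. They were -1.20 for 14 G2/M members with and -1.13 for 6 without, and -0.68 for 2 S-phase members with and -0.56 for 13 without.

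**Figure D4:**
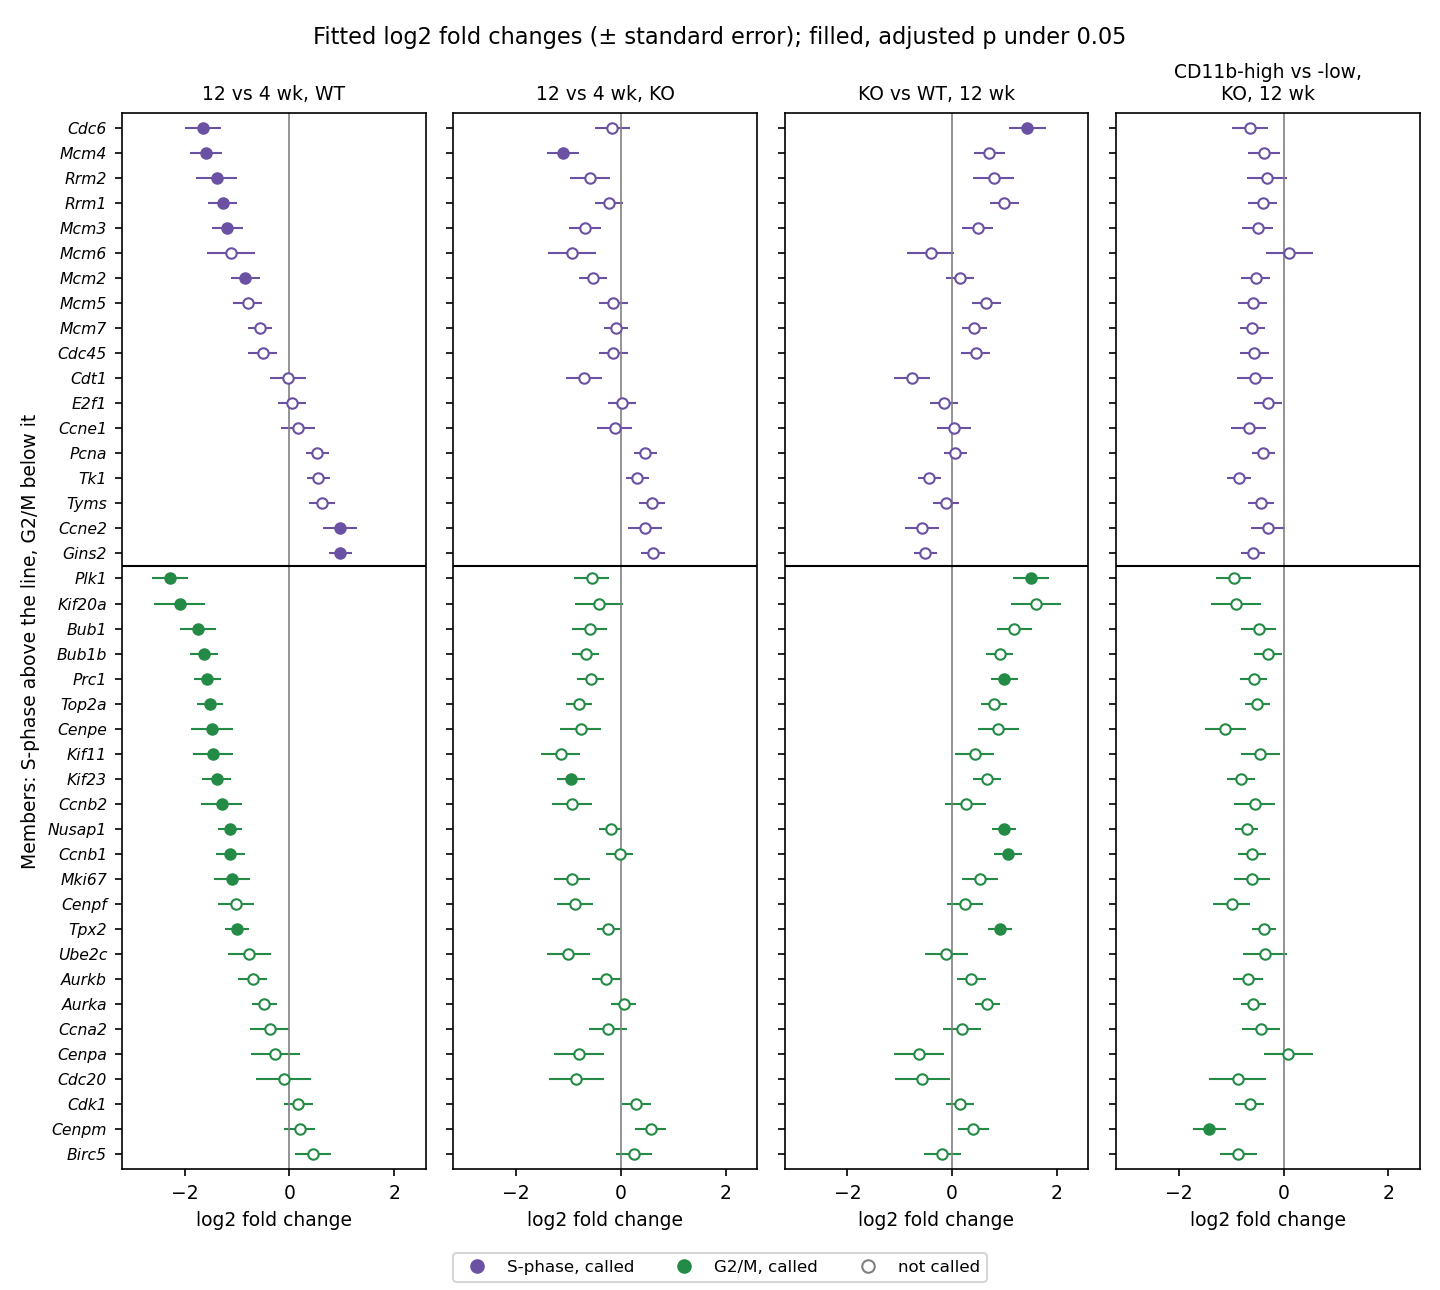
Fitted log2 fold change (± SE) of each of the 42 members in 4 comparisons, purple for S-phase and green for G2/M members, filled where the adjusted p was under 0.05. With age in wild-type cells 20 members fell and 2 rose, with age in knockout cells 2 fell, in knockout against wild-type cells at 12 weeks 6 were higher, and in CD11b-high against CD11b-low cells 1 was lower. The panels of age in wild-type cells and of genotype share the 12-week wild-type libraries.

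Leaving out each of the 15 libraries in turn gave 16 to 24 called members, where 7.74% to 18.4% of all genes were called. In every alternative run 13 of the 22 calls passed. Of 22 alternatives, the call was lost in 15 for Ccne2, 12 for Mcm2, 7 for Mki67 and 5 for Ccnb2, and in at most 4 for any other member. Erythroid markers summed to 1812 to 8326 CPM in the young and 495 to 1357 CPM in the adult wild-type libraries. Xist was high in replicates 1 and 3 of the young and low in all adult wild-type libraries. With a term for Xist in the fit 21 members were called. The part of erythroid cells in the result was not tested.

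In knockout CD11b-low cells the same age comparison gave fewer calls. Mcm4 stood at 108, 98.7 and 98.6 CPM at 4 weeks and 30.7, 67.8 and 43.9 CPM at 12 weeks (log2 -1.10, SE 0.30, adjusted p = 0.0365), and Kif23 at 71.4, 74.8 and 85.6 CPM and then 31.2, 53.3 and 35.4 CPM (log2 -0.95, SE 0.27, adjusted p = 0.0436). In both genes the ages did not overlap. These 2 members fell, none rose and 40 were not called, where 2.08% of all genes were called lower and 4.81% higher. The medians were -0.59 over the G2/M members and -0.14 over the S-phase members (all genes -0.02), and 20 of 24 G2/M differences and 12 of 18 S-phase differences were negative. The adult libraries lay wholly below the young ones for 12 G2/M and 5 S-phase members (19.6% of all genes) and wholly above for 2 S-phase members, Gins2 and Pcna (19% of all genes). Among those below were Top2a (100, 100 and 126 CPM, then 69.0, 63.1 and 55.8 CPM, log2 -0.80, adjusted p = 0.0561) and Prc1 (70.6, 54.0 and 69.6 CPM, then 38.8, 47.8 and 43.9 CPM, log2 -0.57, adjusted p = 0.175). Ccnb1 (19.3, 18.05 and 18.8 CPM, then 16.6, 20.2 and 18.5 CPM) and Cdc6 (30.4, 19.8 and 17.3 CPM, then 16.7, 25.4 and 18.2 CPM) overlapped between the ages. The count rested on single libraries: it was 0 without replicate 1, 2 or 3 of 4-week knockout, without replicate 1 or 3 of 12-week knockout CD11b-low or without replicate 2 of 4-week wild type, 1 (Mcm4) without replicate 1 or 3 of 4-week wild type, and 5 without replicate 2 of 12-week knockout CD11b-low or replicate 1 of 12-week wild type. It was 0 with the Xist term. In the fits that gave 5 members, 9.48% and 14.4% of all genes were called, in that order. T and NK cell markers summed to 2.45 to 4.72 CPM in the young and 54.5 to 158 CPM in the adult knockout libraries, and their part in the result was not tested.

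Whether the age difference itself differed between the genotypes was tested by the interaction. No member passed in edgeR (33 of all genes, 0.248%), 10 of 42 had an unadjusted p under 0.05, DESeq2 called 1 (Plk1) and limma voom none. The interaction (the age difference in knockout minus that in wild-type cells) was positive for 20 of 24 G2/M and 10 of 18 S-phase members, with medians of 0.43 and 0.25 (all genes -0.02). The S-phase median moved with single libraries: it was 0.00 without replicate 1 of 4-week wild type, 0.15 without replicate 2 of 12-week wild type, 0.11 and 0.07 without replicates 1 and 2 of 12-week knockout CD11b-low, 0.48 without replicate 3 of 4-week wild type and 0.44 without replicate 3 of 12-week knockout CD11b-low. The G2/M median was 0.30 without replicate 1 of 4-week wild type, 0.71 without replicate 1 of 12-week wild type and 0.72 with the Xist term. Among the members the interaction was largest for Plk1 (log2 1.72, SE 0.48, adjusted p = 0.211) and Kif20a (1.68, SE 0.66, adjusted p = 0.474), followed by Cdc6 (1.48, adjusted p = 0.313). A difference between the genotypes in the age effect was thus not shown for any member by edgeR.

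The effect of the knockout in adult mice was addressed by CD11b-low cells at 12 weeks. In the knockout cells 5 of 24 G2/M members and 1 of 18 S-phase members rose, none fell and 36 were not called, where 3.1% of all genes were called, 2.6% higher and 0.497% lower. This comparison uses the same 12-week wild-type libraries as the wild-type age comparison, so they are not independent. Medians were 0.60 over the G2/M members and 0.11 over the S-phase members (all genes -0.04). Knockout libraries lay wholly above wild-type ones for 10 G2/M and 4 S-phase members (9.82% of all genes), and for none wholly below (7.99% of all genes).

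Plk1 was at 2.01, 3.50 and 3.79 CPM in wild-type and 8.45, 12.0 and 6.13 CPM in knockout cells, 2.85-fold higher (log2 1.51, SE 0.35, adjusted p = 0.0225). Nusap1 was at 27.3, 29.1 and 27.5 CPM in wild-type and 62.4, 56.8 and 47.6 CPM in knockout cells (log2 0.99, SE 0.23, adjusted p = 0.0218). In these, as in the other 4 called members, each knockout library was above each wild-type one. Tpx2 was at 17.5, 17.1 and 18 against 39.2, 36.6 and 23.7 CPM (log2 0.92, SE 0.23, adjusted p = 0.0365), Ccnb1 at 6.32, 10.8 and 9.27 against 16.6, 20.2 and 18.5 CPM (log2 1.07, SE 0.27, adjusted p = 0.0391), and Prc1 at 23.6, 17.6 and 24.3 against 38.8, 47.8 and 43.9 CPM (log2 0.995, SE 0.26, adjusted p = 0.0459). The S-phase member was Cdc6, at 3.54, 10.2 and 8.54 against 16.7, 25.4 and 18.2 CPM, 2.71-fold higher (log2 1.44, SE 0.35, adjusted p = 0.0298). Rrm1, Mcm5 and Mcm7 also separated the groups but were not called (log2 0.996, 0.65 and 0.43, adjusted p = 0.058, 0.196 and 0.31), and Gins2, Ccne2, Tk1 and Cdt1 had negative differences (log2 -0.51, -0.57, -0.44 and -0.77, adjusted p = 0.211, 0.32, 0.272 and 0.22).

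These 6 calls were sensitive to single libraries and to the fit. Without replicate 2 of the knockout group none was called, without any 1 of the 12-week wild-type libraries 2 were called, without any 1 of the 4-week knockout libraries or replicate 2 of 4-week wild type 3 were called, and with only these 2 groups in the fit none was called. The direction of the 6 did not change in any alternative. That was nearly fixed in advance, since they were chosen as called and their groups did not overlap. DESeq2 called 11 members higher, where it called 6.62% of all genes in either direction. Lymphocyte markers moved with the comparison: the 14 T and NK cell markers were all detected in the 3 knockout libraries and summed to 66.9, 158 and 54.5 CPM, against 3.50 to 7.40 CPM with 3 of 14 at 0 in each wild-type library, and the 8 B and plasma cell markers summed to 4.48 to 14.4 against 1.21 to 1.62 CPM. Dendritic cell and eosinophil markers were higher too, at 69.9 to 109 against 28.4 to 34.4 CPM and at 124 to 617 against 10.02 to 17.3 CPM, as were neutrophil markers, at 84.8 to 151 against 54.9 to 76.4 CPM. Erythroid markers were lower, at 69.3 to 124 against 495 to 1357 CPM. The knockout library with the highest T and NK cell sum, replicate 2, also had the highest G2/M sum (766 CPM). The part of these cells in the result was not tested. With the Xist term 6 members were called, of which 4 (Ccnb1, Plk1, Prc1 and Nusap1) were among those above.

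**Figure D5:**
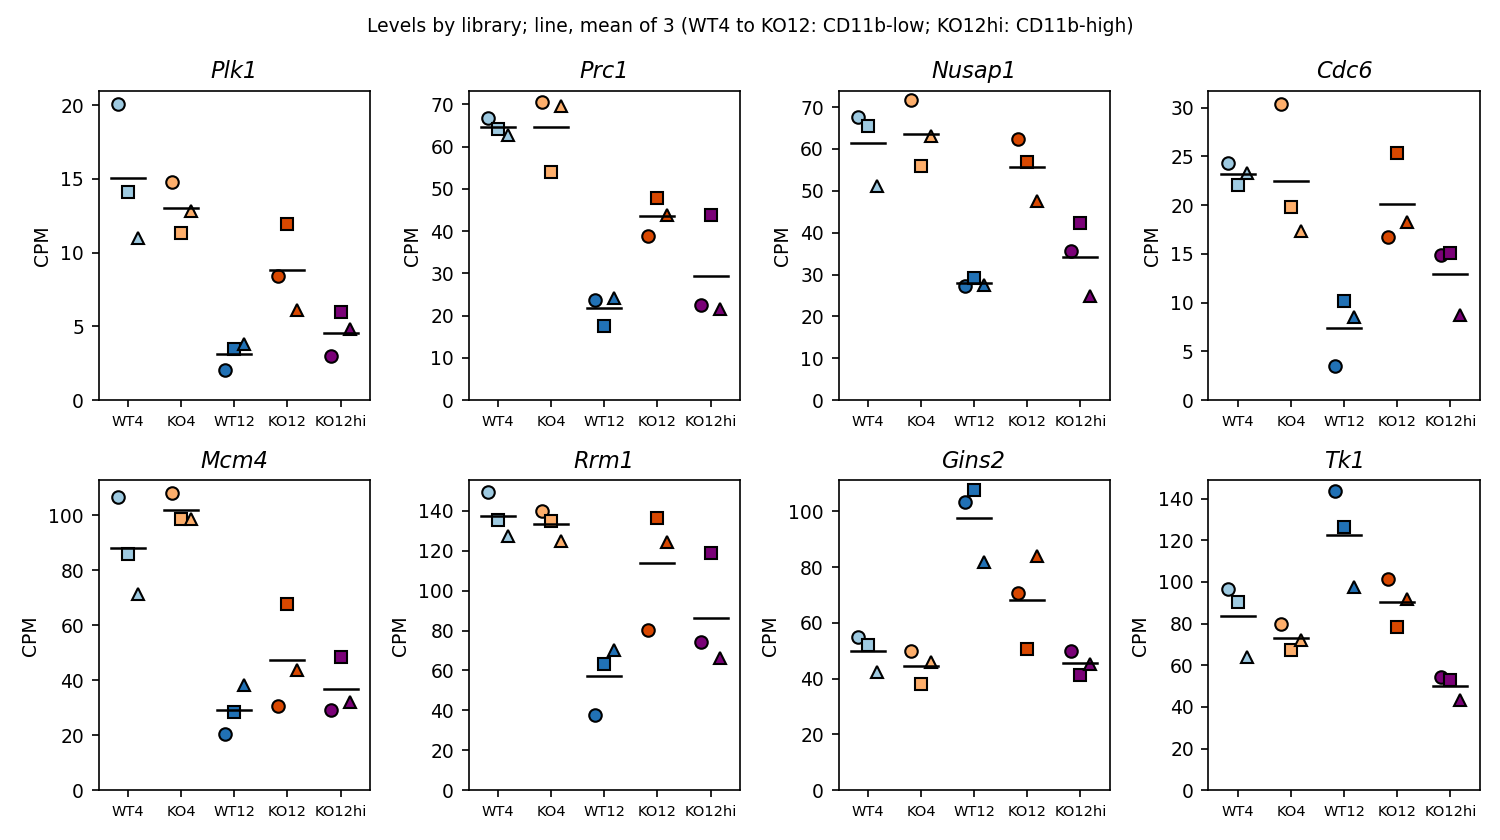
CPM of 8 members in each library (circle, square and triangle for replicates 1, 2 and 3), with the mean of 3 as a line; KO12hi is the CD11b-high group and all others are CD11b-low. Plk1, Prc1, Nusap1 and Cdc6 are lower in 12-week wild-type than in 12-week knockout CD11b-low cells in all libraries, and Gins2 and Tk1 have their highest means in 12-week wild-type cells (WT12).

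At 4 weeks no difference between the genotypes was detected in the members. Erythroid markers did differ, at 1812 to 8326 CPM in wild-type and 55.0 to 173 CPM in knockout libraries, and their part in the result was not tested. No member was called in edgeR (13 of all genes, 0.0979%, with 0.0151% higher and 0.0828% lower), DESeq2 or limma voom, and none had an unadjusted p under 0.05. Medians were 0.05 over the G2/M and -0.05 over the S-phase members (all genes -0.01). Of the most abundant members by CPM, Rrm2 stood at 211, 197 and 175 CPM in wild-type and 243, 167 and 174 CPM in knockout cells (log2 0.00, SE 0.38), Rrm1 at 150, 135 and 128 against 140, 135 and 125 CPM, Bub1b at 99.0, 97.5 and 107 against 87.6, 102 and 102 CPM and Top2a at 102, 101 and 107 against 100, 100 and 126 CPM (log2 0.07, SE 0.24). The 2 groups overlapped in all 4. Knockout libraries lay wholly above wild-type ones for 1 S-phase and 1 G2/M member (3.91% of all genes) and wholly below for 1 G2/M member (4.72%). Outside this rule, and noted after its values were seen, Mki67 was higher in each knockout library (41.7, 43.2 and 48.9 against 29.2, 36.6 and 38.9 CPM, log2 0.36, adjusted p = 1).

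Within the 12-week knockout, CD11b-high cells were set against CD11b-low cells of the same age. Cenpm, a protein of the inner kinetochore, was called, at 5.87, 5.16 and 3.63 CPM in CD11b-high and 16.2, 13.2 and 9.59 CPM in CD11b-low cells, 2.66-fold lower (log2 -1.41, SE 0.31, adjusted p = 0.0416). It was the only member that fell and none rose, where 0.693% of all genes were called, 0.572% higher and 0.12% lower. The shift was broad and small: 23 of 24 G2/M and 17 of 18 S-phase differences were negative, with medians of -0.60 and -0.51 (all genes 0.01), and 16 members had an unadjusted p under 0.05. CD11b-high libraries lay wholly below CD11b-low ones for 7 G2/M and 6 S-phase members (5.86% of all genes) and wholly above for none (7.91%). The replicate numbers paired these libraries, and in all 3 same-numbered pairs the CD11b-high library was lower for 20 of 24 G2/M and 13 of 18 S-phase members, where 17.8% of all genes were. No member was higher in all 3 pairs, where 20.5% of all genes were.

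Tk1 was at 54.3, 52.9 and 43.5 CPM in CD11b-high and 101, 78.3 and 92.0 CPM in CD11b-low cells, with no overlap (log2 -0.85, SE 0.22, adjusted p = 0.0974). It was called beside Cenpm when the fit held only these 2 groups with the replicate number as a block, an alternative added after the data were seen, and by DESeq2. Without the block, a fit of only these 2 groups called none. The S-phase members of highest CPM, Rrm2 (67.1, 151 and 91.3 against 90.2, 172 and 124 CPM) and Rrm1 (74.2, 119 and 66.1 against 80.5, 137 and 124 CPM), overlapped between the groups but were lower in each same-numbered pair. Neutrophil markers summed to 328 to 471 CPM in CD11b-high and 84.8 to 151 CPM in CD11b-low cells, dendritic cell markers to 125 to 577 and 69.9 to 109 CPM, eosinophil markers to 312 to 999 and 124 to 617 CPM, and T and NK cell markers to 82.8 to 212 and 54.5 to 158 CPM. Their part in the result was not tested. Leaving out single libraries gave 0 to 2 calls. The call for Cenpm was lost without replicate 1 or 2 of 4-week wild type, any 1 of the 4-week knockout libraries, any 1 of the 12-week knockout CD11b-low libraries or replicate 2 or 3 of the CD11b-high group, and Tk1 joined it without replicate 1 of 12-week wild type. With the Xist term Cenpm was not called (adjusted p = 0.0612).

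CD11b-high knockout cells were also set against CD11b-low wild-type cells at 12 weeks, a comparison in which genotype and CD11b change together and cannot be told apart. Here 3 of 18 S-phase members and 1 of 24 G2/M members fell and none rose, where 5.6% of all genes were called lower and 9.23% higher. Tk1 was at 54.3, 52.9 and 43.5 CPM against 144, 126 and 97.4 CPM in wild-type cells, 2.44-fold lower (log2 -1.29, SE 0.22, adjusted p = 0.000939), and it passed in every alternative. Gins2 was at 50.01, 41.4 and 45.3 against 103, 108 and 81.9 CPM (log2 -1.10, SE 0.23, adjusted p = 0.00352), and Cdt1, the licensing factor that works with Cdc6, at 4.16, 2.86 and 3.94 against 13.5, 7.64 and 6.12 CPM (log2 -1.31, SE 0.35, adjusted p = 0.0186). Cenpm was at 5.87, 5.16 and 3.63 against 14, 7.67 and 7.76 CPM (log2 -1.01, SE 0.31, adjusted p = 0.0357). The groups did not overlap for these 4 genes. Cdt1 and Cenpm were not called without replicate 1 of the wild-type group or replicate 2 of the CD11b-high group, and Cenpm was not called without replicate 3 of the CD11b-high group. The median was -0.31 over the S-phase members and -0.11 over the G2/M members. The G2/M median had no stable sign: it was 0.04 without replicate 1 of wild type, 0.05 and 0.11 without replicates 1 and 3 of the CD11b-high group, 0.13 with limma voom and 0.05 with the Xist term, and -0.41 without replicate 2 of the CD11b-high group. With the Xist term Cenpm was not called and Bub1b was called higher. Markers of other cells differed widely, with neutrophil markers at 328 to 471 against 54.9 to 76.4 CPM, eosinophil markers at 312 to 999 against 10.02 to 17.3 CPM, dendritic cell markers at 125 to 577 against 28.4 to 34.4 CPM, T and NK cell markers at 82.8 to 212 against 3.50 to 7.40 CPM and erythroid markers at 53.3 to 153 against 495 to 1357 CPM. Their part in the result was not tested. The group means of Gins2 and Tk1 were highest in these wild-type libraries, which are shared with the comparison of CD11b-low cells at 12 weeks.

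Other genes of the cycle, from lists written for this account, were read the same way. With age in wild-type cells 8.39% of all genes were called lower and 8.79% higher. Of 50 further G2/M genes, 25 fell and 2 rose in that comparison (median log2 -0.94). They included Ckap2l, a spindle protein (31.1 ± 2.1 to 9.41 ± 0.66 CPM, SD, n = 3, log2 -1.73, adjusted p = 0.000458 in edgeR), Ncaph, a condensin subunit (log2 -1.69, adjusted p = 0.00368), and Cit, the citron kinase of cytokinesis (log2 -1.37). The 2 that rose were Pttg1 (securin, log2 1.12) and Cks1b (a Cdk subunit, log2 0.86), named although they lie outside the rule. At 12 weeks 3 of the 50 were higher in knockout cells, Ckap2l (17.8 ± 1.7 against 9.41 ± 0.66 CPM, log2 0.92, adjusted p = 0.0168), Ncaph (log2 1.23, adjusted p = 0.0313) and Hmmr (log2 1.09, adjusted p = 0.0482), and none was lower. Of all genes 2.6% were called higher and 0.497% lower there. With age in knockout cells Ckap2l fell (log2 -0.83, adjusted p = 0.0194), and in CD11b-high knockout against wild-type cells Cks1b and Incenp were lower (log2 -1.11 and -1.27, adjusted p = 0.0101 and 0.045). These were 2% and 4% of the list, against 6.89% and 14.8% of all genes called. The call for Incenp was lost in 13 of 22 alternatives, 10 of them with a single library left out, and its log2 difference was -0.46 without replicate 1 of 12-week wild type. The 12-week call for Hmmr was lost in 15 of 22, 12 of them with a single library left out. Those for Ncaph and Ckap2l at 12 weeks were each lost in 4 of 22.

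Of 32 further S-phase genes, 6 fell and none rose with age in wild-type cells (median log2 -0.43), among them Uhrf1, which maintains DNA methylation at the fork (29.2 ± 8.6 to 9.09 ± 1.5 CPM, log2 -1.68, adjusted p = 0.00339), Mcm10 (log2 -1.31) and Pola1, the catalytic subunit of DNA polymerase alpha (log2 -1.33). The share called, 18.8%, was near the 17.2% of all genes. Of all genes 8.39% were called lower and 8.79% higher. With age in knockout cells Uhrf1 and Dscc1 fell (log2 -1.09 and -1.73, adjusted p = 0.0291 and 0.0328). This was 6.25% of the list, where 6.89% of all genes were called. These calls were lost in 6 and 5 of 22 alternatives. No gene of this list was called between the genotypes at 12 weeks, where 3 of 32 had an unadjusted p under 0.05.

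Of 14 G1 drivers 2 were called with age in wild-type cells, and of 19 tested genes of the inhibitor list also 2, both shares below the 17.2% of all genes. E2f8 and Cdk6 fell with age in wild-type cells (log2 -1.55 and -0.96, adjusted p = 0.0125 and 0.0389), and no driver was called in the other comparisons. Without replicate 1 of 12-week wild type the E2f8 difference was -2.15, and it was not called without replicate 2 of that group or replicate 3 of 4-week wild type. Ccnd2 (cyclin D2), the driver of highest CPM, stood at 326 ± 84 and 385 ± 64 CPM in 4-week wild-type and knockout cells, 227 ± 5.1 and 385 ± 86 CPM in 12-week wild-type and knockout CD11b-low cells (log2 0.76, SE 0.25, adjusted p = 0.112) and 378 ± 101 CPM in CD11b-high cells. Among the inhibitors, Cdkn2b (p15, which inhibits Cdk4 and Cdk6) rose with age in both genotypes (log2 1.78 in wild-type and 2.15 in knockout cells, adjusted p = 0.0363 and 0.0239), at levels of at most 1.23 ± 0.26 CPM. Lin9 of the MuvB complex, which also takes part in activating mitotic genes, fell with age in wild-type cells (log2 -1.19, adjusted p = 0.029), the antiproliferative gene Tob1 fell with age in knockout cells (log2 -0.77, adjusted p = 0.0371), and Lin37 was lower in CD11b-high knockout than in wild-type cells (log2 -0.79, adjusted p = 0.041). Of 22 alternatives, the call was lost in 13 for Lin37, 10 for Tob1, 9 for Cdk6 and 6 for Lin9. The calls for Cdkn2b were lost in 10 of 21 in wild-type and 7 of 22 in knockout cells.

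Regulators of macrophage self-renewal moved in both directions. Bhlhe41, which with Bhlhe40 supports the division of alveolar macrophages, stood at 444 ± 121 CPM in 4-week and 79.1 ± 47 CPM in 12-week wild-type cells (log2 -2.49, SE 0.48, adjusted p = 0.00458), and at 423 ± 256 CPM in 12-week knockout CD11b-low cells, higher than wild type (log2 2.42, SE 0.48, adjusted p = 0.00934). Maf, a factor that restrains self-renewal in macrophages, was also higher in knockout cells at 12 weeks, at 4.86 ± 3.2 against 0.651 ± 0.53 CPM (log2 2.89, SE 0.64, adjusted p = 0.0188). These 2 of 11 regulators rose and none fell in that comparison, where 2.6% of all genes were called higher and 0.497% lower. With age in wild-type cells 3 rose (Klf2, Csf2ra and Spi1) and 2 fell (Bhlhe41 and Csf1r). Of all genes 8.79% were called higher and 8.39% lower there. With age in knockout cells Maf rose (log2 3.76, adjusted p = 0.00313, and 3.13 without replicate 2 of 12-week knockout CD11b-low), where 4.81% of all genes were called higher. In CD11b-high knockout against wild-type cells 3 were higher and 3 lower, led by Bhlhe41 (log2 3.15, adjusted p = 0.000419). Of all genes 9.23% were called higher and 5.6% lower in that comparison. The 12-week difference in Bhlhe41 was not called without replicate 1 or 2 of the wild-type group and was 3.01 without replicate 3, its age difference in wild-type cells was -3.08 without that library, and the 12-week difference in Maf was not called without replicate 2 or 3 of the wild-type or replicate 2 of the knockout group (log2 2.22), and was 3.73 without replicate 1 of the wild-type group. T and NK cell markers were higher in the same 12-week knockout libraries, and their part in the Maf and Bhlhe41 values was not tested.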

How the data were processed

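Gene counts of 15 libraries (SMARTer amplification and Illumina sequencing, per the labels' protocols) were used as the authors deposited them: whole-number counts per Ensembl gene, not normalized. STAR, Subread and featureCounts are named in the submitters' processing notes, and their versions, the genome build and the use of strand are not given in the sources used here. Of 40780 rows, 270 repeated rows of 160 genes were removed. Genes were kept by edgeR's filter (minimum count 10, minimum total 15), which left 13284 genes and at least 99.9% of the counts of every library. A single count was worth at most 0.0469 CPM.

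Robust quasi-likelihood tests (edgeR 4.0.16, limma 3.58.1, R 4.3.3) with TMM scaling were fitted to all 15 libraries with 1 term per group and 10 residual degrees of freedom. Alternatives were DESeq2 1.42.0, limma voom with library weights, RLE factors, no filter, a replicate block, only the groups compared, and each library left out. A term for Xist above 10 CPM and a block within the 2 groups of 12-week knockout cells were added after the data were seen. The procedure was tested on simulated data. The labels call the replicates independent, and replicate pairs differed by more than counting noise.

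The members and lists were chosen with earlier results of these data known. In each comparison up to 8 called members per phase are named in order of adjusted p, or the 2 of highest mean CPM where none passed, and up to 3 genes of each other list by the same rule. Other genes are named after their values were seen, and a few list genes are not reported here. Marker lists covered alveolar macrophages, lymphocytes (T and NK, B and plasma), erythroid cells (Ahsp was not used), neutrophils, eosinophils, dendritic cells, monocytes and lung epithelium. Deviations from group means correlated between same-numbered CD11b-low and CD11b-high libraries of 12-week knockout mice (r across genes 0.429, 0.353 and 0.113). For different numbers r was -0.362 to 0.0666. Only these libraries were treated as pairs. Same-numbered 12-week wild-type and knockout CD11b-low libraries also correlated (r 0.364, 0.0854 and 0.205), against -0.321 to 0.167 for different numbers. Shared structure by replicate number in that comparison was thus not excluded.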

Additional observations from a re-analysis of the deposited data

Results flagged for a closer look

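No member was called for a difference between the genotypes in its age effect, whereas 4 marker genes of other cell types were (edgeR interaction, adjusted over all genes tested, 3 libraries per group). The T cell genes Cd3g and Cd247 had log2 interactions of 5.36 (SE 0.85, adjusted p = 0.0177) and 6.30 (SE 1.198, adjusted p = 0.0349), and the T and NK cell kinase gene Lck one of 4.25 (SE 0.80, adjusted p = 0.0343). Ear6, of the eosinophil list, had 4.84 (SE 0.84, adjusted p = 0.0231). In each the rise with age was larger in knockout cells. Such fitted values of genes near 0 in some groups depend on the prior count.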

How the results depend on the processing

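The alternatives were run for the genes named by rule because they were called, and for Cybb, and not for other genes the text names. None of those values reversed: 1202 values kept their direction and side of the threshold and 272 kept the direction only. With age in wild-type cells (22 members called) 13 calls passed in all 22 alternatives, and leaving out 1 library gave 16 to 24 (7.74% to 18.4% of all genes). For knockout against wild type at 12 weeks (6 called, 3.1% of all genes) there were 10 calls without the filter (4.34% of all genes). There were 0 with only the groups compared (1.55%), 11 with DESeq2 (6.62%) and 0 to 7 with 1 library left out (1.67% to 3.18%). For age in knockout cells (2 called, 6.89% of all genes) there was 1 call with RLE factors (7.42%) and 7 without the filter (5.56%). There were 5 with only the groups compared (13.4%), 5 with DESeq2 (12.8%) and 11 with limma voom (19.9%). There were 0 with the Xist term (4.15%), and 0 to 5 with 1 library left out (1.7% to 14.4%). More members were thus called mostly where more of all genes were. For CD11b-high against CD11b-low cells (1 called, 0.693% of all genes) there were 3 without the filter (2.12%) and 0 with only the groups compared (0.144%). There were 2 with DESeq2 (1.96%) and 0 with the Xist term (0.58%), and 0 to 2 with 1 library left out (0.0145% to 1.79%). Between CD11b-high knockout and wild-type cells (4 called, 14.8% of all genes) there were 7 without the filter (9.96%) and 1 with only the groups compared (6.58%). There were 6 with DESeq2 (18.6%) and 3 with limma voom (18.8%, without Cdt1 and Cenpm, with E2f1). There were 4 with the Xist term (12.8%, 3 lower, and Bub1b higher), and 2 to 7 with 1 library left out (6.97% to 15.8%). The interaction (0 called, 0.248% of all genes) had 2 calls without the filter (1.28%) and 1 with DESeq2 (1.14%). The causes were not tested. With medians in place of means, the G2/M minus S-phase difference was 0.230 between the genotypes at 4 weeks, -0.627 with age in knockout cells and -0.0948 for the interaction, against 0.0895, -0.331 and 0.227. It was 0.135 between the genotypes at 12 weeks and -0.00599 between CD11b-high and CD11b-low cells, against 0.317 and -0.159.

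With the replicate number as a block in the fit of all libraries, 7 members were called at 12 weeks between the genotypes (3.57% of all genes), 5 between CD11b-high knockout and wild-type cells (16.1%), 2 with age in knockout cells (7.11%) and 1 between CD11b-high and CD11b-low cells (0.73%). The numbers were taken to pair only the last of these groups, where the block with only those groups gave 2 calls (Tk1 and Cenpm, with 2.01% of all genes called). With 3 pooled libraries per group, differences that miss the threshold are not shown to be absent.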

Other observations

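Replicate 1 of the 12-week knockout mice was the lowest of its group in both CD11b fractions for the 3 mitotic members given here. They were picked after their values were seen, with no count over all members and no test. Other members went the other way. For Cenpm replicate 1 was the highest in both fractions (16.2 and 5.87 CPM). Its CD11b-low library also had the highest Cdk1 and Aurka levels of all 15 libraries (92.5 and 33.5 CPM). Ube2c, which works with the anaphase promoting complex, stood at 6.28, 18.4 and 11.7 CPM in CD11b-low and 3.22, 14.3 and 11 CPM in CD11b-high libraries. Cenpa, the centromeric histone H3 variant, stood at 5.34, 19.7 and 13.8 CPM and at 4.40, 15.4 and 21.5 CPM. Ccnb2 stood at 16.7, 43.5 and 34.0 CPM and at 8.52, 32.7 and 23.0 CPM.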
